A study of Mus musculus with 4 samples.

Results

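The genes described here are 10 transcriptional outputs of RAS and MAP kinase signalling, namely Dusp4, Dusp5, Dusp6, Spry1, Spry2, Spry4, Etv4, Etv5, Fosl1 and Phlda1. They were picked by gene symbol and not by a threshold on measured values, and all 10 were found among the 32289 features of the 4 libraries. These genes, and the gene lists and markers used below, were chosen with earlier results of these data known. Counts of them set beside shares of all genes are therefore a description only. In this pathway, growth factor receptors load RAS with GTP, and RAS then drives the kinases RAF, MEK and ERK in turn. ERK induces genes that act back on the pathway, such as the dual-specificity phosphatases and the Sprouty inhibitors, as well as transcription factors of the ETS and AP-1 families. The RNA of these genes is widely used as a readout of ERK activity.

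Cells came from mouse lung tumours, and RNA was counted as unique molecular identifiers (UMIs), which mark single captured molecules. The alleles of all groups included p53frt and Rosa-FSF-CreERT2, on which Flp recombinase acts, and Hnf4aflox. Tamoxifen activates the CreERT2 protein, which recombines floxed Hnf4a. Tumours were started with adenoviral mSPC-FlpO, in which a surfactant protein C promoter drives Flp. Mice received tamoxifen or vehicle 10 weeks after the virus, and cells were harvested 2 weeks after that injection. The labels call the vehicle ethanol in 1 field and corn oil in another. Part of each suspension was kept as it was, and the remainder was depleted of cells bearing CD45 or CD31, markers of leukocytes and endothelium. Each combination of treatment and depletion is 1 group with 1 library, giving 4 groups, and the number of animals or tumours behind a suspension was not stated. Since both libraries of a treatment were drawn from shared suspensions, the comparison after depletion does not replicate the one before it.

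The 4 libraries held 92644997 to 144994771 UMIs, and 6111 to 7358 cells per library were kept. Epithelial-like cells were named from their markers, and tumour cells were not set apart among them. They numbered 15787 in all, with 32107177 to 136353632 UMIs per library. Any library pair shared 10 to 18 cell barcodes. Levels are given as CPM, UMI counts scaled so that all UMIs of the stated cells in 1 library sum to 1000000. Hnf4a, the floxed gene, stood at 56.3, 55.0, 87.5 and 83.0 CPM in epithelial-like cells, in the order vehicle before, vehicle after, tamoxifen before and tamoxifen after depletion. It was therefore not lower where the label reads tamoxifen, and 3′ counts do not show which exons a transcript carries. The term "library labelled tamoxifen" is used for this reason. Values below keep that order of libraries. With 1 library per group no test was made, and a range in brackets after a log2 ratio or a single level is a 95% interval for counting error only. Ratios have 1 CPM added to each side, and their intervals are taken without it.

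Promoter sequences of 3 of the genes are shown first, from RefSeq on GRCm38.p6. Windows were found for 5 of the 10 genes, Dusp5, Dusp6, Spry1, Spry2 and Etv5. Those of Dusp5 (chr19:53528895-53529108, plus strand), Dusp6 (chr10:99262981-99263230, plus strand) and Etv5 (chr16:22439720-22439820, minus strand) are printed up to the annotated gene start, since these 3 genes took different orders across the epithelial clusters. Gene positions given below are those of GENCODE M21 on GRCm38. Capitals mark the CArG box, the element read by serum response factor, in Dusp5, the ETS core CGGAA on either strand in Dusp6, and the CCAAT box in Etv5.
Dusp5: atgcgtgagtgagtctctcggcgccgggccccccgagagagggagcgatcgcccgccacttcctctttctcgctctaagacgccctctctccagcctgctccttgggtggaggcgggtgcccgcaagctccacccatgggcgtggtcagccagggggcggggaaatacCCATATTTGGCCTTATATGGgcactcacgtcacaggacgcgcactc
Dusp6: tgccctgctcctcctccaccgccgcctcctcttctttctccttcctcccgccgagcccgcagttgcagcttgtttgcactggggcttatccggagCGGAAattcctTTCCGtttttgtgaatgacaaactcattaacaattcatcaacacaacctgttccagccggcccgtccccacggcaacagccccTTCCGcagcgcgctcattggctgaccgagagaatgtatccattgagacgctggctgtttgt
Etv5: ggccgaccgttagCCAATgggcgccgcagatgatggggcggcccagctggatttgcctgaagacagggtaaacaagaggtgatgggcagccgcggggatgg
The Dusp5 stretch held 2 CArG boxes side by side, and the Dusp6 stretch held 3 matches to CGGAA or its reverse complement TTCCG. The Etv5 stretch held 1 CCAAT box. The marked motifs are not particular to the gene: the whole Dusp6 window also held 1 CCAAT match and the whole Dusp5 window 1 CGGAA match, which are not in capitals. Over 32851 RefSeq windows of 300 bases, on both strands, a CArG box was found in 1.63%, CGGAA in 29.9% and CCAAT in 37.4%. These matches describe letters in a window. Binding was not measured, and no link from motif to level was tested.

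The Dusp genes encode phosphatases that remove phosphate from MAP kinases. Dusp4 (ENSMUSG00000031530, chr8:34807297-34819894, plus strand) and Dusp5 (ENSMUSG00000034765, chr19:53529109-53542431, plus strand) encode nuclear enzymes, and Dusp6 (ENSMUSG00000019960, chr10:99263231-99267489, plus strand) encodes a cytoplasmic enzyme that prefers ERK. Dusp4 measured 35.9, 45.9, 37.9 and 42.2 CPM in epithelial-like cells. In T cell-like cells it measured 38.7 to 65.1 CPM and in B cell-like cells 37.6 to 44.5 CPM, ranges over the 2 libraries before depletion. These classes therefore overlapped the epithelial-like cells, while alveolar macrophage-like cells were near the floor at 0.369 to 0.844 CPM. The single plasma cell-like sample with at least 50 cells stood highest, at 110.1 CPM (94.5 to 128).

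Dusp5 had a different distribution, with most leukocyte classes above the epithelium. It measured 48.7, 51.2, 36.7 and 37.2 CPM in epithelial-like cells. In NK cell-like cells it reached 505 to 547 CPM and in neutrophil-like cells 373 to 484 CPM. Dendritic cell-like, T cell-like and alveolar macrophage-like cells overlapped one another between 197 and 274 CPM. B cell-like cells, at 49.2 to 58.9 CPM, overlapped the epithelial-like range. Only endothelial-like cells had a lower mean than epithelial-like cells. The feature AC137853.2 lies across Dusp5 on the other strand and reached at most 1.05 CPM in epithelial-like cells.

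Dusp6 was the phosphatase shared by epithelium and endothelium. Its level was 186, 219.5, 219 and 227 CPM in epithelial-like cells and 209.6, 196, 215 and 238 CPM in endothelial-like cells, ranges that overlapped. Neutrophil-like cells followed at 106 to 117 CPM and fibroblast-like cells at 74.1 to 94.2 CPM. In lymphoid classes Dusp6 did not exceed 25.4 CPM.

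Sprouty proteins are induced by growth factor signalling and inhibit it upstream of ERK. Spry1 (ENSMUSG00000037211, chr3:37639947-37644598, plus strand) was measured in 3 structural classes at 112 to 167 CPM (fibroblast-like), 119 to 131 CPM (epithelial-like) and 82.7 to 107 CPM (endothelial-like). The first and second of these ranges overlapped, and every leukocyte class was at or below 11.5 CPM. Spry2 (ENSMUSG00000022114, chr14:105891947-105896819, minus strand) measured 88.4, 76.04, 94.7 and 81.5 CPM in epithelial-like cells and was higher, at 160.0 to 173 CPM, in NK cell-like cells. Among the other leukocytes Spry2 did not exceed 21.4 CPM. NK cell-like cells thus held the highest levels of both Spry2 and Dusp5, with Spry1 at 0 to 1.84 CPM.

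Spry4 (ENSMUSG00000024427, chromosome 18) was above all an endothelial transcript in these suspensions. Endothelial-like cells held 172, 116, 129 and 158 CPM, and fibroblast-like cells 70.6, 57.9, 55.3 and 59.3 CPM. Epithelial-like cells held 10.5, 9.04, 11.1 and 12.7 CPM. The 3 ranges did not overlap, and the remaining classes were at or below 1.31 CPM.

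The ETS factors Etv4 (ENSMUSG00000017724, chr11:101769742-101785371, minus strand) and Etv5 (ENSMUSG00000013089, chr16:22381309-22439719, minus strand) are close relatives that act downstream of FGF receptors and ERK in lung epithelium. Etv4 measured 25.7, 24.6, 33.7 and 34.1 CPM in epithelial-like and 33.7, 40.99, 23.7 and 36.7 CPM in fibroblast-like cells, ranges that overlapped. Etv5 measured 116, 77.1, 86.9 and 74.6 CPM in epithelial-like cells and did not exceed 27.2 CPM in any other class. Etv5 is also known for its role in maintaining alveolar type 2 cells.

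Fosl1 (ENSMUSG00000024912, chr19:5447547-5455946, plus strand) encodes the AP-1 subunit FRA1, which accumulates under sustained ERK signalling. It measured 28.4, 40.6, 13.97 and 20.8 CPM in epithelial-like and 27.4, 30.4, 22.5 and 16.4 CPM in fibroblast-like cells. The 2 ranges overlapped, and leukocyte classes were at or below 3.89 CPM. Ccdc85b lies across Fosl1 on the other strand, and whether counting used strand was not stated in the sources used here. Ccdc85b measured 52.1 to 62.7 CPM in epithelial-like cells. Phlda1 (ENSMUSG00000020205, chr10:111506286-111508645, plus strand), which encodes a pleckstrin-homology-like protein, measured 352, 384, 356 and 412 CPM in epithelial-like and 524, 592, 700.2 and 411 CPM in fibroblast-like cells. For Phlda1 the fibroblast-like range began at the upper end of the epithelial-like range. Gm28592, across Phlda1 on the other strand, stayed between 0.12 and 0.29 CPM.

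**Figure D1:**
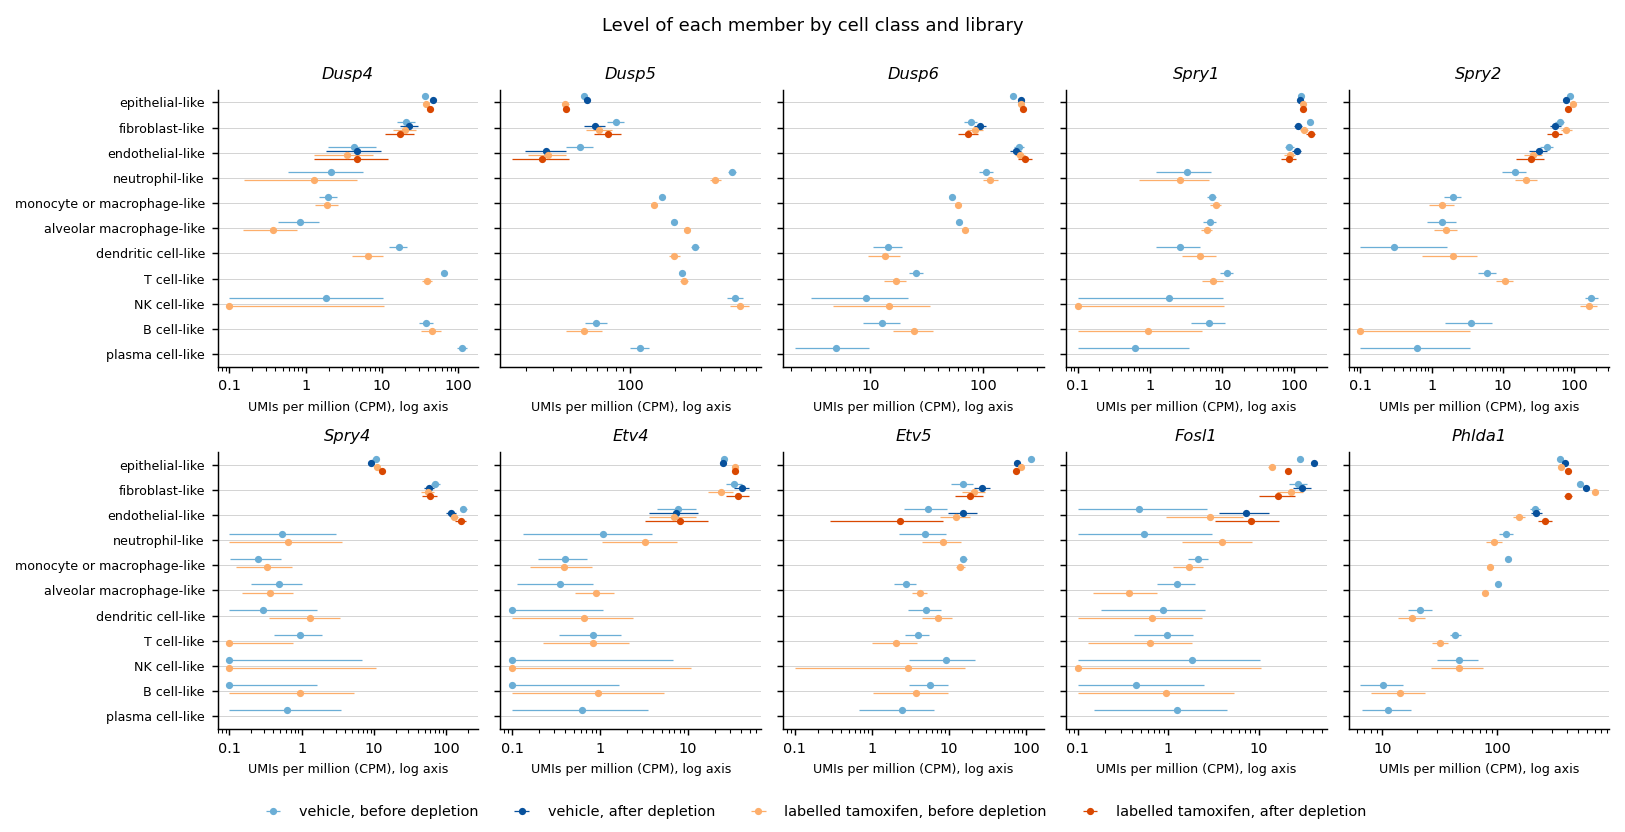
Level of each of the 10 genes (CPM, log axis) by cell class, with 1 point per library. Dusp5 is higher in most leukocyte classes than in epithelial-like cells, Spry4 is highest in endothelial-like cells, and Etv5 is highest in epithelial-like cells.

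Set against all non-epithelial cells pooled within the same library before depletion, 8 of the 10 genes were at least 2-fold higher in epithelial-like cells of both treatments. Among all 10206 genes at 10 CPM or more, 19% were that much higher and 17.9% that much lower. Most of the pool was leukocytes. Of its 5799 cells under vehicle, 114 were fibroblast-like and 151 endothelial-like, and of 4866 under the tamoxifen label 81 and 150. Fibroblast-like ranges over libraries overlapped the epithelial-like ones for Spry1, Spry2, Etv4, Fosl1 and Phlda1, as endothelial-like ranges did for Dusp6. The log2 ratios were 3.51 and 3.21 for Etv5, 3.33 and 3.56 for Spry2 and 3.12 and 3.70 for Etv4 (vehicle, then labelled tamoxifen). Fosl1 gave 3.02 and 2.40, and Spry1 gave 2.86 and 3.20. Dusp6, Phlda1 and Dusp4 were also higher, with ratios between 1.17 and 2.15. Dusp5 alone was lower, at -1.90 and -2.34, and Spry4 lay inside the 2-fold band at 0.22 and 0.72. Over the 10 genes the median ratio was 2.31 and 2.27, against 0.080 and 0.10 over all genes considered.

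Cells differ in depth between classes, so each cell was also thinned to 2000 UMIs before asking whether it held a transcript. Phlda1 was then seen in 39.6 to 44.2% of epithelial-like cells, and Dusp6 in 25.7 to 30.2%. Fosl1 was seen in 2.15 to 6.49%, against 1 of 1123 T cell-like cells (0.0890%) in the vehicle library and 0 of 664 in the library labelled tamoxifen, which allows up to 0.452%. Median depths before thinning were 16847 to 28710 UMIs in epithelial-like and 5806 to 5980 UMIs in T cell-like cells. Spry4 was seen in 11.5 to 27.7% of endothelial-like and 1.31 to 2.18% of epithelial-like cells. Dusp5 was seen in 58.3 to 64.3% of NK cell-like and 4.59 to 7.76% of epithelial-like cells. A thinned epithelial-like cell held a mean of 1.44 to 1.48 of the 10 transcripts, and 15.1 to 17.1% of such cells held 3 or more.

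Within the epithelium the genes split into sets that peaked in different clusters. Clusters were made without these 10 genes and without a list of other pathway outputs, so the levels did not define them. The named clusters were alveolar type 2-like (3562 cells, led by Lyz1), alveolar type 1-like (1443), transitional-like (2110, led by Pyy and Inhba), gastrointestinal-like (1518, led by Agr2 and Ttr) and cycling-like (247). Others are called by a leading gene, as Dcpp1-led (2040), Mcpt2-led (1977), Scgb1a1-led (1971) and Adgrl3-led (467). The Adgrl3-led cells had medians of 6698 UMIs and 13.3% mitochondrial UMIs. Medians of mitochondrial UMIs in the other epithelial clusters were 2.37 to 4.38%. A further Scgb3a2-led cluster of 452 cells reached 50 cells in 1 library only. It was not set against the other clusters, but it was used in the correlations over 10 epithelial clusters.

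Dusp4 was highest in the transitional-like cluster, at 119.6, 119, 98.7 and 108 CPM. It was lowest in alveolar type 2-like cells, at 7.11, 9.38, 9.62 and 10.3 CPM, and means of the highest and lowest cluster were 12.2-fold apart. Both ends of the order held in all 4 libraries. In between, Adgrl3-led, gastrointestinal-like, Mcpt2-led, alveolar type 1-like and Dcpp1-led cells overlapped in a chain between 21.7 and 57.5 CPM.

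Dusp5 followed Dusp4, with 102, 105, 73.4 and 86.3 CPM in transitional-like cells and 14.8, 10.97, 16.6 and 11.6 CPM in alveolar type 2-like cells. The means were 6.82-fold apart. Gastrointestinal-like cells came second at 41.3 to 71.98 CPM and were below the transitional-like level within every library in which both reached 50 cells. Across the 10 epithelial clusters, which share libraries and differ in depth, log2 levels of Dusp4 and Dusp5 had a Pearson correlation of 0.90.

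Dusp6 varied less, with means 3.22-fold apart. Mcpt2-led cells held 274, 279.6, 291 and 311 CPM and transitional-like cells 276, 233, 246 and 236 CPM. Alveolar type 2-like cells held 70.8, 91.5, 91.5 and 105 CPM and were again lowest. The ranges of the Mcpt2-led, gastrointestinal-like, transitional-like, alveolar type 1-like and Dcpp1-led clusters overlapped in a chain, so their order is not resolved.

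The Sprouty genes had flatter and different orders. Spry1 had its highest mean in Dcpp1-led cells at 168, 147, 181 and 187 CPM and its lowest in transitional-like cells at 63.1, 64.3, 56.7 and 55.4 CPM. Gastrointestinal-like cells, at 158 to 161 CPM, overlapped the Dcpp1-led level and exceeded it in the vehicle library after depletion. Adgrl3-led cells overlapped the transitional-like level, at 44.2 to 95.8 CPM. Spry1 was thus low in the cluster where Dusp4 and Dusp5 were high. Spry2 showed the smallest spread of the 10 genes, with means 1.75-fold apart and transitional-like cells at 102, 96.4, 101 and 101 CPM. Spry4 ranged from 4.06 to 5.78 CPM in alveolar type 1-like cells to 12.03 to 18.4 CPM in Dcpp1-led cells, and most neighbours in that order overlapped.

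**Figure D2:**
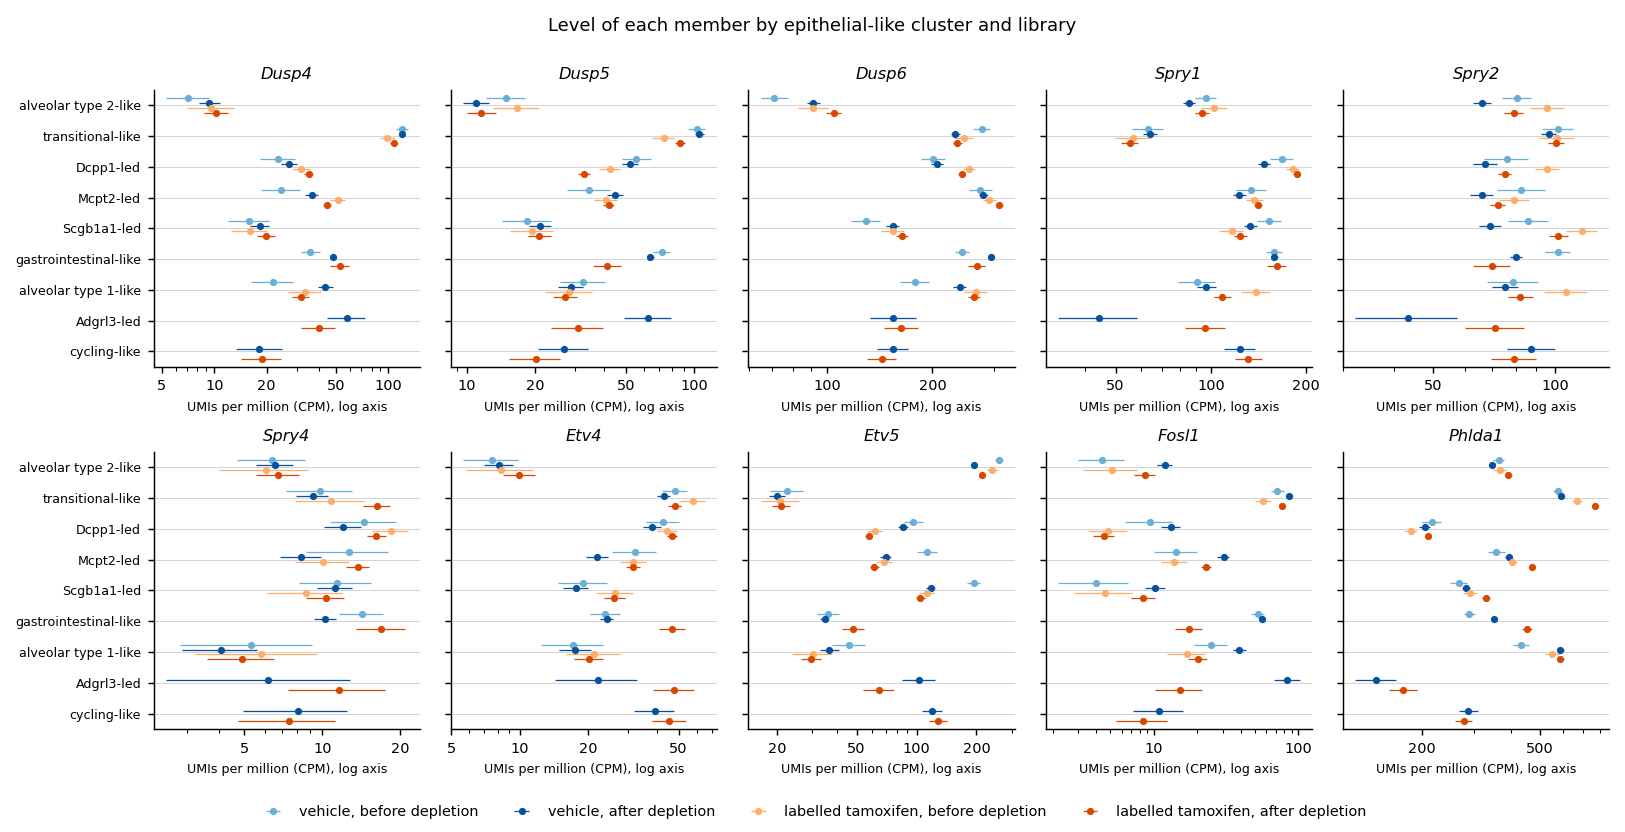
Level of each of the 10 genes (CPM, log axis) by epithelial-like cluster, with 1 point for each library holding at least 50 cells of the cluster. Dusp4, Dusp5 and Fosl1 are highest in the transitional-like cluster, where Etv5 and Spry1 have their lowest mean.

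Etv4 and Etv5, although related, ran in opposite directions between the transitional-like and alveolar type 2-like clusters. Etv4 measured 48.1, 43.1, 57.7 and 47.98 CPM in transitional-like and 7.54, 8.11, 8.28 and 9.95 CPM in alveolar type 2-like cells. Etv5 measured 22.3, 19.9, 20.6 and 20.8 CPM in transitional-like and 259, 194, 241 and 214 CPM in alveolar type 2-like cells. The highest cluster mean was 5.81-fold above the lowest for Etv4 and 10.8-fold for Etv5.

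The share of Etv5 in the summed UMIs of Etv4 and Etv5, which does not depend on the depth of a cell, described the same contrast. It was 95.6 to 97.2% in alveolar type 2-like cells over the 4 libraries and 26.3 to 31.7% in transitional-like cells. Scgb1a1-led cells stood next to the alveolar type 2-like cells, at 80.0 to 91.1%, and gastrointestinal-like cells at 50.7 to 60.1%. Dcpp1-led (55.2 to 69.3%) and alveolar type 1-like cells (58.6 to 72.7%) overlapped, as did Mcpt2-led (66.1 to 77.8%) and cycling-like cells (73.8 to 75.4%). The transitional-like and alveolar type 2-like ranges lay at the ends and overlapped none of the other clusters.

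**Figure D3:**
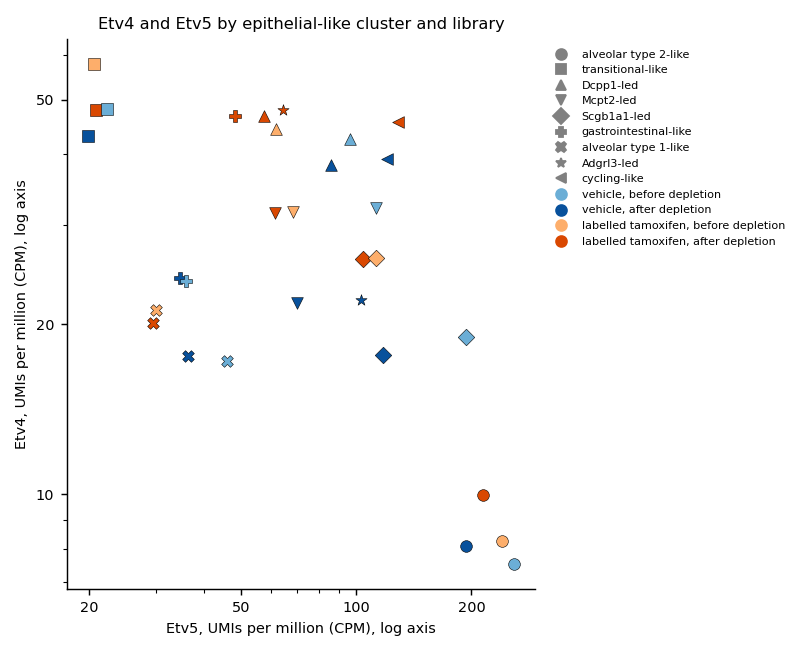
Etv4 and Etv5 levels (CPM, log axes) in each epithelial-like cluster and library. Alveolar type 2-like points lie at high Etv5 and low Etv4, and transitional-like points at low Etv5 and high Etv4.

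Fosl1 was highest in transitional-like cells at 71.7, 85.9, 57.2 and 77.3 CPM. Adgrl3-led cells overlapped that range, at 84.04 CPM in the vehicle library after depletion and 15.1 CPM in the library labelled tamoxifen after it. Fosl1 measured 4.41, 11.9, 5.14 and 8.64 CPM in alveolar type 2-like cells and 9.37, 13.1, 4.85 and 4.51 CPM in Dcpp1-led cells. The lowest mean was that of Scgb1a1-led cells, 3.97 to 10.2 CPM, a range that overlapped both of these clusters, and means of the highest and lowest cluster were 10.7-fold apart. Ccdc85b, across Fosl1 on the other strand, was also highest in transitional-like cells, at 98.3, 87.5, 72.7 and 95.9 CPM. Its part in the Fosl1 values was not tested. Phlda1 was likewise highest in transitional-like cells, at 574, 592, 667 and 769 CPM, and lowest in the shallow Adgrl3-led cells, at 139.8 to 173 CPM. Alveolar type 1-like cells, at 432 to 587 CPM, came second for Phlda1, and their range overlapped the transitional-like one.

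Each cluster was then set against all other epithelial-like cells of the same library, and a gene was counted when it stood at least 2-fold apart in every library with at least 50 cells of the cluster. In transitional-like cells 3 of the 9 genes that reached 10 CPM were higher, Dusp4, Dusp5 and Fosl1, where 6.43% of all genes were that much higher. Etv5 was lower there, among 6.45% of all genes. The mean log2 ratios were 1.93 for Dusp4, 1.35 for Dusp5, 2.10 for Fosl1 and -2.18 for Etv5. Spry4 did not reach 10 CPM on either side in every library and was left out in this or the alveolar type 2-like cluster.

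In alveolar type 2-like cells 5 of 9 genes were lower, Dusp4, Dusp5, Dusp6, Etv4 and Fosl1, where 12.2% of all genes were that much lower. Etv5 was higher there, among 2.78% of all genes. Mean log2 ratios were -2.24 for Dusp4, -1.79 for Dusp5, -1.40 for Dusp6, -1.86 for Etv4, -1.82 for Fosl1 and 1.84 for Etv5. Low phosphatase transcripts and high Etv5 thus went together in this cluster, which had a median of 12525 UMIs per cell against 20219 in the transitional-like cluster. The part of depth in these ratios was not tested beyond thinning. After thinning to 2000 UMIs, Dusp4 was seen in 0.485 to 1.91% of alveolar type 2-like and 14.95 to 27.5% of transitional-like cells, and Etv5 in 34.1 to 42.4% and 1.67 to 4.04%.

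Fewer of the genes stood apart in the other clusters. Fosl1 was lower in Dcpp1-led cells (2.27% of all genes), and Dusp4 and Fosl1 were lower in Scgb1a1-led (2.48%) and in cycling-like cells (2.16%). Etv5 was lower in alveolar type 1-like cells (2.54%), and Phlda1 in Adgrl3-led cells, where 22% of all genes were that much lower. None was counted in Mcpt2-led cells, with 0.173% of all genes higher and 0.612% lower, or in gastrointestinal-like cells, with 1.5% and 2.22%. Neutrophil markers summed to 149.7, 1.25, 141 and 6.38 CPM in transitional-like cells. The part of neutrophil RNA in the values of the 10 genes there was not tested.

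Transitional-like cells also held more of the transcripts at once. Of cells thinned to 2000 UMIs, 25.8 to 28.3% held UMIs of 3 or more of the 10 genes, against 9.07 to 13.2% of alveolar type 2-like cells. Mcpt2-led cells lay in between, at 17.2 to 24.6%. Among the other correlations of log2 levels over the 10 epithelial clusters, Dusp5 with Fosl1 had 0.83, Dusp4 with Fosl1 0.81 and Dusp4 with Etv5 -0.75. Etv4 with Etv5 had -0.12 over the same clusters. These points share libraries and are a description only.

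In the comparison of treatments, none of the 10 genes stood at least 2-fold apart the same way both before and after depletion in epithelial-like cells. Of all 9036 genes considered, 0.387% were that much higher and 0.941% that much lower in the libraries labelled tamoxifen. The direction of 5 genes held in both pairs and under all 16 other settings tried, Fosl1 and Dusp5 being lower and Etv4, Spry1 and Spry2 higher. For the other 5 the sign changed between pairs or under another setting.

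Fosl1 came nearest to the 2-fold line. It measured 28.4 against 14.0 CPM before depletion and 40.6 against 20.8 CPM after it (vehicle, then labelled tamoxifen). Its log2 ratios were -0.97 (-1.19 to -0.86) and -0.93 (-1.03 to -0.90). Both libraries labelled tamoxifen were below both vehicle libraries. The size depended on which cells were summed. Without the transitional-like cluster the ratios were -1.24 and -1.33, without the alveolar type 2-like cluster -1.15 and -1.01, and with 6 clusters weighted equally -0.23 and -0.58.

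Dusp5 was lower by a smaller amount, with log2 ratios of -0.40 (-0.52 to -0.30) and -0.45 (-0.51 to -0.41), and again both libraries labelled tamoxifen were below both vehicle libraries. Etv4 was higher, at 0.38 (0.26 to 0.52) and 0.45 (0.40 to 0.53), and its groups did not overlap either. Spry1 gave 0.082 (0.021 to 0.15) and 0.14 (0.11 to 0.18), and Spry2 gave 0.10 (0.027 to 0.17) and 0.10 (0.061 to 0.14). The treatments did not overlap for Spry1, and they overlapped for Spry2.

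The remaining genes gave values that differed between pairs. Etv5 had a ratio of -0.42 (-0.49 to -0.35) before depletion and -0.047 (-0.087 to -0.008) after it. Dusp6 had 0.23 (0.19 to 0.28) and 0.048 (0.025 to 0.071), and Dusp4 0.076 (-0.037 to 0.19) and -0.12 (-0.17 to -0.068). Spry4 had 0.066 (-0.14 to 0.29) and 0.45 (0.38 to 0.60), and Phlda1 0.017 (-0.020 to 0.054) and 0.10 (0.086 to 0.12). The median over the 10 genes was 0.071 before and 0.073 after depletion, against -0.044 and 0.012 over all genes considered.

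**Figure D4:**
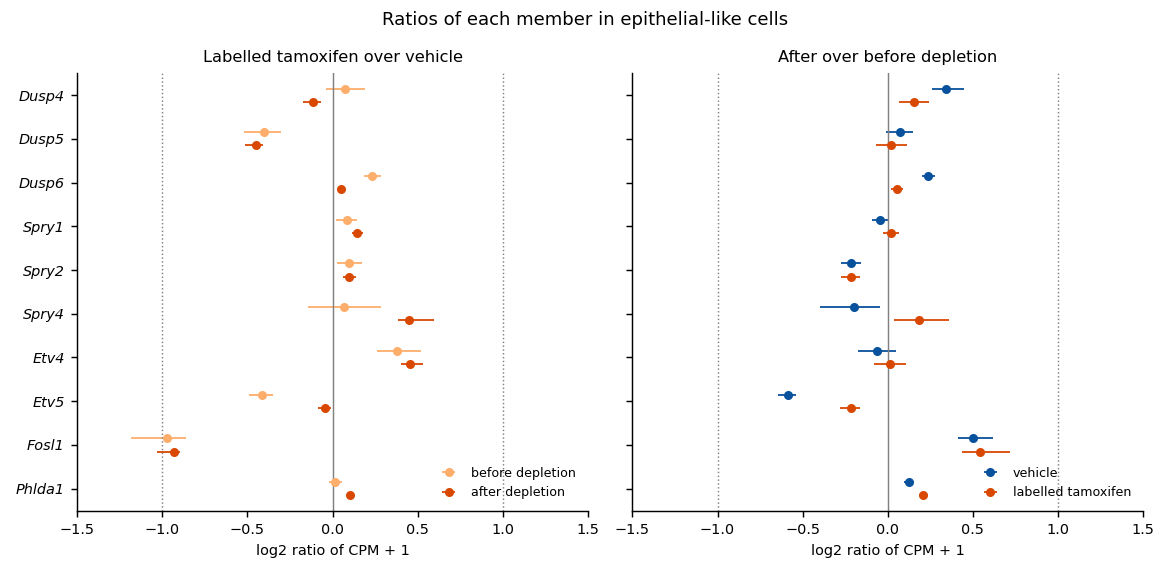
Log2 ratio (labelled tamoxifen over vehicle) of each of the 10 genes in epithelial-like cells, before and after depletion, with 95% counting intervals. Fosl1 lies nearest to the 2-fold line, at -0.97 and -0.93, and no gene lies past it in both pairs.

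The clusters that differ in these genes also made up different shares of the epithelial-like cells. Alveolar type 2-like cells were 35.8, 26.2, 19.1 and 17.8% of them, and gastrointestinal-like cells 13.3, 18.8, 1.20 and 1.87%. Dcpp1-led cells were 7.76, 6.82, 17.9 and 18.6%, and transitional-like cells 12.3, 14.7, 10.5 and 12.7%. Mcpt2-led cells were 5.79, 8.40, 15.4 and 16.9%. Gastrointestinal-like cells, where Fosl1 was 52.6 and 56.3 CPM under vehicle, were thus a smaller share in the libraries labelled tamoxifen. Dcpp1-led and alveolar type 2-like cells were both low in Fosl1, and the former were a larger and the latter a smaller share there. The part of these shares in the Fosl1 ratios was not tested beyond the settings given above.

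Within clusters, Fosl1 was lower in the library labelled tamoxifen in 4 of 6 clusters before and 9 of 9 after depletion. Intervals lay below 0 in 2 of the 6 clusters before and in 7 of the 9 after depletion. After depletion it passed 2-fold in the Dcpp1-led cluster at -1.36 (-1.87 to -1.21), where 2.08% of all genes were that much lower, and in the gastrointestinal-like cluster at -1.63 (-2.01 to -1.38), where 1.83% were. In the Adgrl3-led cluster, the shallowest with a median of 6698 UMIs per cell, Fosl1 measured 15.1 against 84.04 CPM, and Dusp5 was also lower there, with 6.53% of all genes. In the transitional-like cluster, where Fosl1 was highest, the ratios were -0.32 (-0.57 to -0.082) and -0.15 (-0.26 to -0.052). The difference between clusters was not tested.

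Etv4 was higher within 5 of 6 clusters before and 9 of 9 after depletion, with ratios of 0.15 to 1.08 after it and intervals above 0 in 1 of the 6 and 6 of the 9. In the Adgrl3-led cluster, shallow and high in mitochondrial UMIs, Etv4 and Spry1 passed 2-fold, at 1.08 (0.47 to 1.81) and 1.10 (0.66 to 1.59). In that cluster 5.91% of all genes were that much higher. Etv5 was lower within 6 of 6 clusters before depletion, from -0.78 to -0.10, but within 5 of 9 after it. Dusp5 was lower within 3 of 6 and 8 of 9 clusters. In Mcpt2-led cells before depletion, Dusp4 was higher at 1.05 (0.68 to 1.49), where 1.67% of all genes passed, and after depletion the ratio was 0.29 (0.14 to 0.44).

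Depletion itself, measured as after over before within 1 treatment, put none of the 10 genes past 2-fold in both treatments, where 0.0337% of 8911 genes were that much higher and 0.292% that much lower. Fosl1 was higher after depletion, by 0.50 (0.41 to 0.62) under vehicle and 0.54 (0.43 to 0.72) under the tamoxifen label. Etv5 was lower, at -0.58 (-0.64 to -0.54) and -0.22 (-0.28 to -0.16), as was Spry2, at -0.21 (-0.28 to -0.16) and -0.21 (-0.27 to -0.16). For Etv5 under vehicle, portions of 1 suspension thus differed by more than the treatments did in either pair.

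Leukocyte markers were also lower after depletion inside the epithelial-like class. The 5 neutrophil markers summed to 53.4, 3.53, 38.9 and 4.48 CPM, the 6 alveolar macrophage markers to 79.3, 21.9, 93.2 and 14.5 CPM and the 5 T cell markers to 23.3, 6.27, 16.2 and 5.17 CPM. Among the T cell markers Cd3e and Cd3g were at 0 in both libraries after depletion, and among the macrophage markers Marco and Siglecf were. In the classes of these leukocytes, before depletion, Fosl1 did not exceed 3.89 CPM and Etv5 did not exceed 8.42 CPM. The part of leukocyte RNA in the epithelial-like Fosl1, Etv5 and Dusp5 values was not tested. The 5 fibroblast markers summed to 19.2, 23.8, 49.8 and 49.0 CPM, and were higher under the tamoxifen label. In Scgb1a1-led cells, whose leading genes include the fibroblast marker Dcn, they summed to 65.6, 67.4, 201 and 197 CPM. In alveolar type 2-like cells they were lower under that label, at 14.4, 15.1, 6.71 and 12.3 CPM. Fibroblast-like cells held 16.4 to 30.4 CPM of Fosl1 and 23.7 to 40.99 CPM of Etv4, and their part in the epithelial-like ratios was not tested.

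In stroma and leukocytes before depletion, Dusp4 in dendritic cell-like cells and Etv5 in endothelial-like cells stood 2-fold apart by treatment label among levels of 10 CPM or more. In dendritic cell-like cells Dusp4 measured 6.55 against 16.4 CPM (20 against 56 UMIs), a log2 ratio of -1.20 (-2.14 to -0.56). In that class 1.35% of all genes were that much lower. The class pooled several clusters, and its Ccl22-led cells were 62 of 184 under the tamoxifen label and 101 of 206 under vehicle. Their part in the ratio was not tested. In endothelial-like cells Etv5 measured 12.2 against 5.28 CPM, a log2 ratio of 1.07 (0.090 to 2.41) before depletion, where 1.51% of all genes were that much higher. After depletion the same gene measured 2.33 against 15.2 CPM, a log2 ratio of -2.28 (-5.84 to -0.69), the reverse direction, on few UMIs. No gene of the 10 that reached 10 CPM passed 2-fold in the other classes. In these, the shares of all genes that were higher and lower were 1.35% and 3.28% in B cell-like, 0.536% and 0.897% in T cell-like, 0.201% and 0.239% in alveolar macrophage-like, 0.377% and 0.304% in monocyte or macrophage-like and 4.99% and 1.49% in neutrophil-like cells.

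Smaller differences ran through several of these classes. Phlda1 was lower in the library labelled tamoxifen, with counting intervals below 0, in T cell-like (-0.43), alveolar macrophage-like (-0.38), endothelial-like (-0.46), monocyte or macrophage-like (-0.49) and neutrophil-like cells (-0.34), whereas its epithelial-like ratio was 0.017. Dusp5 was lower in dendritic cell-like (-0.46), endothelial-like (-0.69), monocyte or macrophage-like (-0.19) and neutrophil-like cells (-0.37), and higher in alveolar macrophage-like cells (0.28). T cell-like Dusp4 was lower by a ratio of -0.74, also with an interval below 0. All of these values are from before depletion. In endothelial-like cells after depletion, Phlda1 gave 0.25 (-0.00085 to 0.50), the reverse direction, and Dusp5 gave -0.079 (-0.90 to 0.70).

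Fibroblast-like cells reached 100 cells in both libraries only after depletion. There Fosl1 measured 16.4 against 30.4 CPM, a log2 ratio of -0.85 (-1.66 to -0.18). Phlda1 measured 411 against 592 CPM, a log2 ratio of -0.52 (-0.67 to -0.38), and Spry1 measured 167 against 112 CPM, a log2 ratio of 0.57 (0.31 to 0.83). Before depletion, with 81 cells in the library labelled tamoxifen and 114 in the vehicle library, the order was the reverse for Phlda1, at 700.2 against 524 CPM, and for Spry1, at 135 against 161 CPM. Fosl1 kept its order, at 22.5 against 27.4 CPM.

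Other genes of the pathway were read from lists of 22 further outputs and 28 core components. Between treatments none of the 20 outputs and 26 core genes considered passed 2-fold in both pairs. The largest output differences were Hmga2, a chromatin protein downstream of RAS, at -1.04 and -0.81, Epha4, a receptor tyrosine kinase, at 0.52 and 0.62, and Dusp2, a nuclear phosphatase, at -0.39 and -1.27. Among core genes they were Rps6ka1, an ERK-activated kinase, at -0.43 and -0.23, Rasa2, a RAS GTPase-activating protein, at -0.35 and -0.21, and Mapk3, which encodes ERK1, at -0.25 and -0.22. The list medians were 0.034 and 0.124 for outputs and -0.144 and -0.075 for core genes.

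Against pooled non-epithelial cells, mostly leukocytes, 12 of 20 further outputs were higher in epithelial-like cells. These included Etv1, Egr1, Ccnd1 and the ligands Areg, Ereg and Hbegf. Dusp2 and Plaur were lower, as Dusp5 was. Of 27 core genes 5 were higher, Sos2 and Pebp1 among them, and 2 were lower (Grb2 and Ksr1), against 19% and 17.9% of all genes, so the core genes were higher about as often as genes in general. Between clusters, 8 of 20 further outputs were higher in transitional-like cells (Dusp2, Dusp7, Ier3, Myc, Emp1, Plaur, Areg and Hmga2), and 1, Etv1, was lower. In alveolar type 2-like cells 10 of 20 were lower and 0 higher. The shares of all genes given above were 6.43% higher and 6.45% lower in the former, and 12.2% lower and 2.78% higher in the latter. Of 26 core genes, Rras and Rasa1 were higher in transitional-like cells. A further list of 10 held immediate early genes, which respond to handling as well as to ERK, and heat shock genes. It summed to 5470 to 8072 CPM in transitional-like and 7501 to 8845 CPM in alveolar type 2-like cells. Those ranges overlapped, and none of the 10 was counted as higher in transitional-like cells.

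The genes most like each of the 10 were found by Pearson correlation of log2 levels over 26 clusters of all cell types, among 13835 genes. For Etv5 they were Hkdc1, Lamp3 and Chia1 (0.91 to 0.92), and for Spry4 they were Hspg2, Col4a1 and Cdr2l (0.95 to 0.96). Dusp5 was nearest to Selplg, Runx2 and Pik3r5 (0.88 to 0.89), and Dusp4 to Kcnmb4, Ccdc92 and St8sia6 (0.84 to 0.86). Dusp6 was nearest to Bnip3, Rcan1 and Gm48089 (0.88 to 0.93) and Fosl1 to Mgat3, Gm30624 and Fam110c (0.89 to 0.90). Spry1 had Bcam, Rbfox2 and Pls3 (0.95), Spry2 had Rab27b, Ypel1 and Igsf5 (0.90 to 0.94), Etv4 had Efna4, Cald1 and Ptk7 (0.96) and Phlda1 had Plcb3, Pwwp2b and Fgfrl1 (0.91 to 0.94). The clusters share libraries, so these values describe likeness of pattern and carry no test.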

How the data were processed

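RNA was counted per cell in 4 lung tumour libraries, 1 for each group, grouped by the labels. The deposited matrices give whole, unnormalized UMI counts for each gene in each barcode. They were written by Cell Ranger 7.0.1 per the file headers, while the submitters' processing notes name version 7.2.0 and the build mm10. The chemistry was 10x Genomics 3′ version 3 per the labels' protocols. The use of strand and of intronic reads is not given in the sources used here. Libraries held 7658, 7284, 6558 and 7867 barcodes (vehicle before and after depletion, then labelled tamoxifen before and after), with medians of 9302, 17733, 9894 and 16484.5 UMIs per kept cell.

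Barcodes needed 200 genes or more, and mitochondrial UMIs could not exceed 20%. Scrublet's automatic threshold called 188, 1, 1 and 0 doublets and had not worked in 3 libraries, so a fixed score of 0.25 removed 225, 120, 116 and 153 cells. Cells were clustered with scanpy 1.11.5 on 2000 variable genes, 40 components and 15 neighbours (Leiden resolution 1), without the 10 genes described and without the list of other outputs. Clusters were named from markers, needing 3 markers each seen in 10% of cells and at least 20 cells. The rule on leading genes was redefined after its first form left the transitional-like cluster unnamed on Mcpt8 alone. Clusters with 374 cells in all stayed unnamed.

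UMIs were summed per library and class and scaled to CPM. Ratios are log2 with 1 CPM added. A gene counted as apart when it differed by 2-fold or more in the same direction throughout, with 10 CPM on at least 1 side each time, which is a rule of size and not a test. Intervals for CPM are exact Poisson intervals, those for shares are Clopper-Pearson, and those for ratios are conditional binomial, taken without the added CPM. Limits for 0 correspond to 3 counts. Counts simulated with known changes were used to test this rule. Alternatives covered scaling (edgeR 4.0.16 TMM and median of ratios), the added CPM, CPM minimum, fold, thinning, gating, weighting, Leiden resolution and leaving out clusters. Named genes are the 10, Hnf4a, the 3 largest same-direction differences of each pathway list, and the 3 genes most correlated with each of the 10. The genes, lists and markers were chosen with earlier results of these data known. Coordinates are from GENCODE M21 on GRCm38, which matched 32158 of 32289 features. 1 item of the genotype and the gene lists is not reported here.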

Additional observations from a re-analysis of the deposited data

Results flagged for a closer look

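Several differences had opposite signs in 2 groups, with counting intervals that lay on opposite sides of 0. In none of these cases was the difference between the groups tested. In epithelial-like cells, Spry4 after over before depletion had a log2 ratio of -0.20 under vehicle and 0.18 in the libraries labelled tamoxifen. In endothelial-like cells, where Spry4 is most abundant, its ratio of labelled tamoxifen over vehicle was -0.41 before and 0.45 after depletion. Etv5 in endothelial-like cells gave 1.07 before and -2.28 after depletion.

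Epithelial-like and other cells also differed in the sign of the ratio of labelled tamoxifen over vehicle. Before depletion Dusp6 gave 0.23 in epithelial-like and -0.57 in T cell-like cells, and Spry1 gave 0.082 and -0.56 in the same classes. Dusp5 gave -0.40 in epithelial-like and 0.28 in alveolar macrophage-like cells. Spry2 gave 0.099 in epithelial-like and -0.61 in endothelial-like cells, and Etv5 gave -0.42 and 1.07. After depletion Phlda1 gave 0.10 in epithelial-like and -0.52 in fibroblast-like cells. Before depletion, fibroblast-like Phlda1 ran the other way, at 700.2 CPM in the library labelled tamoxifen (81 cells) against 524 CPM in the vehicle library, so that contrast rests on 1 pair.

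Between epithelial-like clusters, Dusp4 was higher in the libraries labelled tamoxifen within the Dcpp1-led (0.43 before, 0.36 after depletion) and Mcpt2-led clusters (1.05 and 0.29), and lower within the transitional-like cluster (-0.27 and -0.14). Spry1 was higher within the alveolar type 1-like cluster (0.61 and 0.16) and lower within the Scgb1a1-led cluster (-0.39 and -0.10). Before and after depletion are portions of the same suspensions, so these pairs of values do not replicate each other.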

How the results depend on the processing

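With 1 library per group, no replicate could be left out and no test was made, and the errors given are those of counting. No paired analysis was possible because the groups compared share fewer than 2 replicate numbers. Depletion ratios are given within each treatment, and a fit over both treatments was not run. Of the 320 treatment ratios computed under other settings, 243 moved by less than their counting interval, 77 moved further and 12 changed sign, in 6 results (Dusp4, Spry4 and Phlda1 among them). Of the 320 depletion ratios, 250 stayed and 16 changed sign. The scaling factors shift vehicle depletion ratios by 0.122 (log2) under TMM and 0.1002 under median of ratios, slightly less once 1 CPM is added, and Spry1 and Etv4 then changed sign there.

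Counts of genes past the size rule depended on its thresholds. For treatment, 35 genes were higher, against 12 with a 50 CPM minimum and 105 at 1.5-fold, and 85 were lower, against 160 with no minimum, 19 with 50 CPM and 193 at 1.5-fold. Of the 10 genes described, 0 were lower, against 1 at 1.5-fold, which was Fosl1. For depletion, 3 genes were higher, against 8 with no minimum and 11 at 1.5-fold, and 26 were lower, against 209 with no minimum and 1 with 50 CPM. At Leiden resolution 2 the genes counted as low in the transitional-like cluster went from 1 to 2, by the addition of Spry1. Calls in the alveolar type 2-like cluster named the same genes under the 4 alternatives run. Leaving out clusters and adding a mixed cluster of 79 cells were chosen after seeing the data.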
